A study of Mus musculus with 38 samples.

Results

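Kidney transcriptomes of 4 vehicle-treated mice with anti-glomerular basement membrane (anti-GBM) disease were compared with those of 4 vehicle-treated healthy mice. These 8 libraries, NTS1 to NTS4 from healthy mice and NTS5 to NTS8 from diseased mice, were chosen by their treatment and disease labels out of 38 libraries in the gene count table, and no library from a mouse given fibroblast growth factor 23 (FGF23) enters the comparison. All 8 mice were male C57BL/6 mice, 8 weeks old at induction and 10 weeks old when killed. Mice with anti-GBM disease were immunised with sheep immunoglobulin in an adjuvant and then received nephrotoxic serum, a serum raised against glomerular antigens, whereas the healthy mice received buffered saline. Both groups were injected daily for 6 days with the buffer that served as vehicle for FGF23, and the kidneys were collected 24 h later than the final injection. Whether the healthy mice were also immunised is not given in the sources used here, so the contributions of immunisation, adjuvant and serum cannot be told apart. RNA came from a fragment of the middle zone of the kidney, so every value is an average over tubules, glomeruli, vessels, interstitial cells and infiltrating leukocytes. Fewer cells of a type and less RNA per cell cannot be told apart in such material.

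In anti-GBM disease, antibodies bind to the basement membrane of the glomerulus, the filter between blood and urine, and recruit complement and leukocytes through their Fc parts. Plasma proteins then pass the damaged filter and reach the proximal tubule, whose cells normally take up the little protein that is filtered together with phosphate, sugars and amino acids. Injured tubule cells are known to lose transporters, to make injury proteins such as kidney injury molecule 1 and lipocalin 2, and to release chemokines that attract further leukocytes.

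Anti-GBM disease was accompanied by changes in a large share of the measured genes. Of 15034 genes with enough counts to be tested, 2821 were higher (18.8%) and 2457 were lower (16.3%) in anti-GBM than in healthy kidneys at an adjusted p-value below 0.05 (edgeR quasi-likelihood test, n = 4 mice per group). Large changes were mostly rises: 1089 genes (7.24%) rose by more than 1 on the log2 scale, whereas 255 (1.7%) fell by more than 1. All 4 diseased mice lay above all 4 healthy mice in 2799 genes (18.6%) and below them in 2610 genes (17.4%). The median log2 fold change over all tested genes was 0. Without the healthy mouse NTS2, 1575 genes were called lower.

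Depth and composition differed between the groups as well. Total counts ranged from 16241565 to 23630210 in the healthy and from 13704248 to 19515764 in the anti-GBM libraries. Mitochondrially encoded genes held 11.6% ± 0.443 (SD, n = 4) of the counts in healthy and 8.24% ± 0.45 (SD, n = 4) in anti-GBM kidneys (two-sided exact permutation test, p = 0.0286, the smallest value that 4 against 4 mice can give). The first principal component of the 500 most variable genes held 63.4% of the variance and separated the groups. The second held 20.2% and set apart one healthy mouse, NTS3 at −21.1, and one diseased mouse, NTS5 at −26.4, from the other 6 mice at 2.2 to 18.3. Genes at the end of that component where NTS3 and NTS5 lay included Adipoq, Plin1 and Cfd of fat cells, Lyve1 of lymphatic vessels and tissue macrophages, and Msln of mesothelium. The opposite end included the proximal straight tubule transporters Slc22a7, Slc22a13 and Slc22a19. Named genes whose call moved with these 2 mice are given with and without them.

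**Figure D1:**
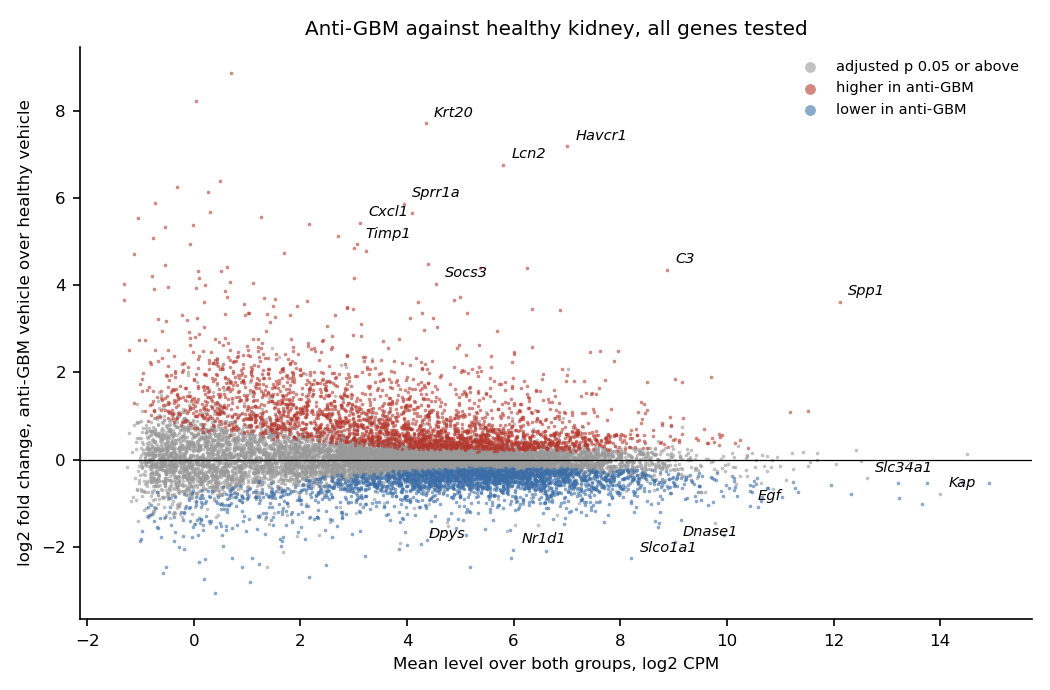
Mean level of each tested gene over both groups (log2 CPM, counts scaled to library size) against its log2 fold change in anti-GBM over healthy kidneys, with genes at an adjusted p-value below 0.05 in red where higher and blue where lower. Rises extend further from zero than falls, with 1089 genes above 1 and 255 below −1.

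Genes of tubular injury rose almost as a block. Of 27 measured genes of this list, 26 were higher and none was lower in anti-GBM kidneys, beside 18.8% and 16.3% of all tested genes. The median log2 fold change was 2.13. Some, such as Krt20 with 14 reads over all healthy libraries, passed the count filter only through the diseased mice, so a rise was built into this count. This list and those that follow were chosen with earlier results of these data known. In what follows, values per mouse are in CPM, scaled to the effective library size, and are given in the order NTS1 to NTS4 for healthy and NTS5 to NTS8 for anti-GBM mice. Havcr1 encodes kidney injury molecule 1, a phosphatidylserine receptor that injured proximal tubule cells display, and lies on chromosome 11 at chr11:46735080-46779578 in build GRCm38 of the mouse genome, as do the gene coordinates that follow. It was counted at 1.87, 1.93, 0.774 and 2.44 CPM in the healthy kidneys and at 152, 261, 346 and 264 CPM in the anti-GBM kidneys. The lowest diseased mouse was thus far above the highest healthy mouse, and the fitted rise was 7.21 ± 0.353 on the log2 scale (estimate ± SE, adjusted p = 4.96e-06). Lcn2, which encodes the iron-siderophore binding protein lipocalin 2 (chr2:32384633-32388252), lay at 1.49, 0.917, 0.726 and 0.898 CPM in healthy and at 28.2, 60.6, 187 and 165 CPM in anti-GBM mice. All diseased mice were above all healthy mice, but they spread widely among themselves, with NTS7 and NTS8 highest (log2 fold change 6.77 ± 0.684, adjusted p = 0.00014).

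Keratins, matrix proteins and growth arrest genes of injured epithelium followed the same direction. Krt20, an intermediate filament keratin of intestinal and urothelial epithelium (chr11:99428403-99438150), was at 0, 0.229, 0.194 and 0.321 CPM in healthy kidneys and at 19.4, 33.6, 47.5 and 61.4 CPM in anti-GBM kidneys. Its log2 fold change of 7.73 ± 0.531 was the largest of the genes named by size, although it rests on a near absence in healthy tissue. Krt20 passed the count filter only through the diseased mice, so it could not have been called lower. Krt18, a keratin of simple epithelia, rose by a log2 fold change of 2.13 ± 0.163 (adjusted p = 3.08e-05). Spp1, which encodes the secreted phosphoprotein osteopontin, stood at 623, 557, 608 and 885 CPM in healthy mice and at 3526, 6195, 15326 and 7955 CPM in anti-GBM mice. Osteopontin was already abundant in healthy kidney, and the groups did not overlap (log2 fold change 3.63 ± 0.409, adjusted p = 0.000239). Sox9, a transcription factor of regenerating tubule cells, rose by 4.79 ± 0.349, and Vcam1, the endothelial and tubular adhesion molecule for leukocytes, by 3.45 ± 0.143, with adjusted p-values of 2.89e-05 and 4.51e-06. Cd44, a hyaluronan receptor, rose by 3.61 ± 0.272 and Clu, the secreted chaperone clusterin, by 1.89 ± 0.215. The cell cycle inhibitor gene Cdkn1a, whose product is p21, rose by 3.05 ± 0.379 and the stress-induced transcription factor gene Atf3 by 3.48 ± 0.385. Gdf15, a stress-induced hormone, lay at 5.03 to 10.8 CPM in healthy and 6.67 to 21.5 CPM in anti-GBM mice, so the groups overlapped. Its adjusted p of 0.0378 became 0.0561 to 0.104 when NTS1, NTS2, NTS3, NTS6, NTS7 or NTS8 was left out. With no mouse left out, it was 0.0614 by limma-voom and 0.0518 in a robust fit.

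Several of the genes with the largest rises lay outside the injury list. Sprr1a, a precursor of the cornified envelope of squamous epithelium, was at 1.16, 0.367, 0.0968 and 0.449 CPM in healthy and at 8.64 to 53.4 CPM in anti-GBM mice (log2 fold change 5.88 ± 0.679). Serpina10, an inhibitor of coagulation factor X, was at 0.242 to 1.32 CPM in healthy and at 16.4 to 45.6 CPM in anti-GBM mice (5.66 ± 0.448). Nr4a3, an orphan nuclear receptor induced early by many stimuli, varied less among diseased mice, at 13.4, 14.4, 9.52 and 13.2 CPM against 0.242 to 0.449 CPM in healthy mice (5.12 ± 0.228, adjusted p = 4.51e-06). In each of these 3 genes the groups did not overlap. All 3 passed the count filter only through the diseased mice, so a rise was built into their selection.

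**Figure D2:**
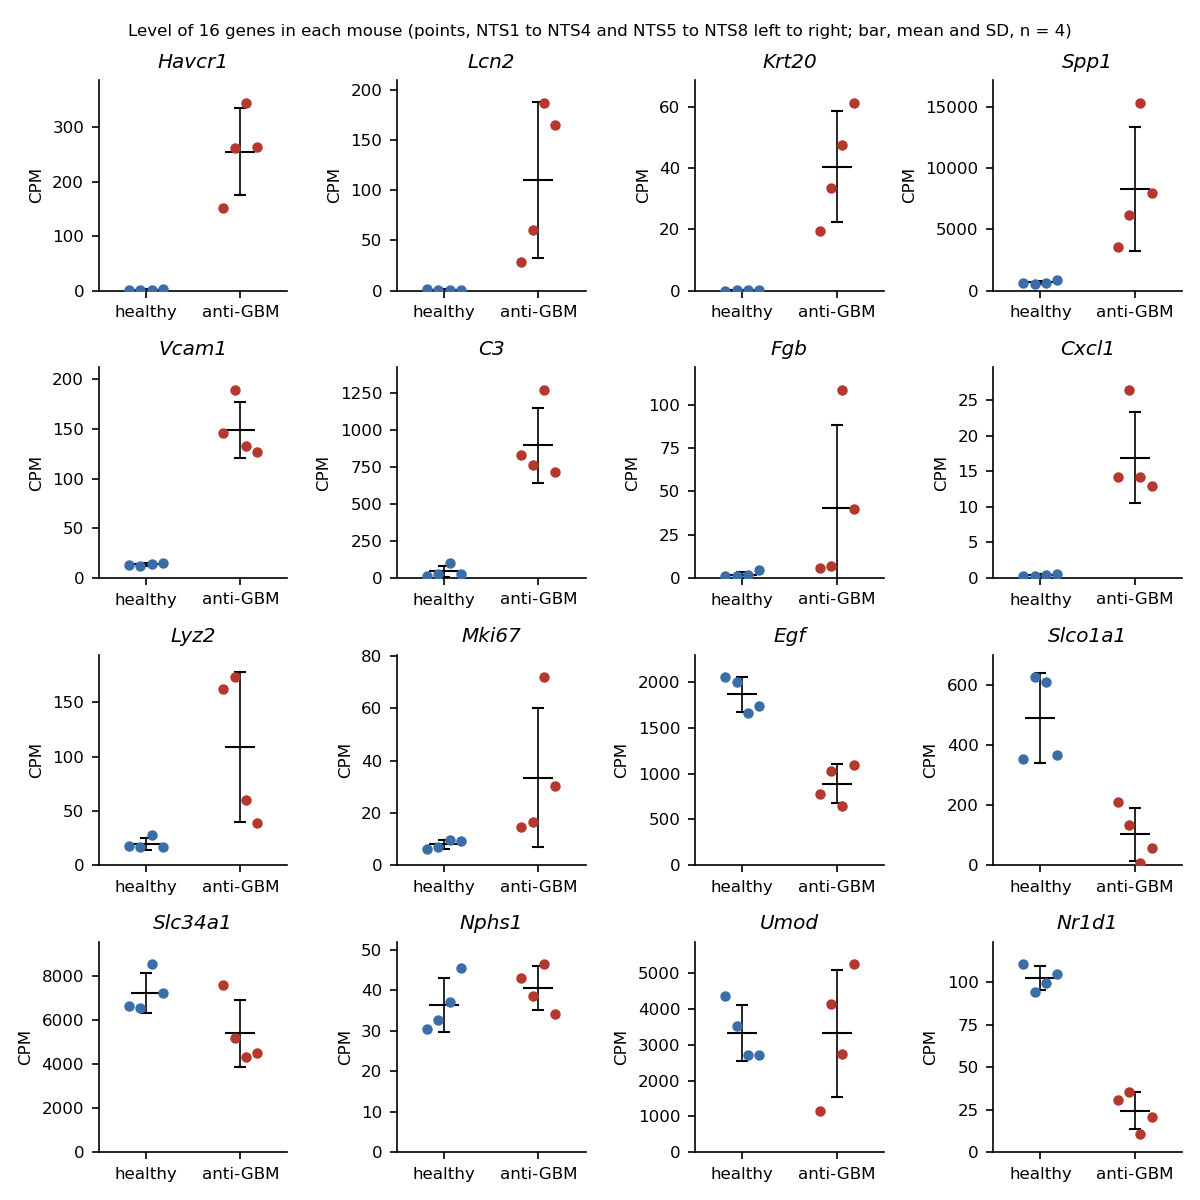
Level of 16 genes in each mouse (points, CPM on linear axes that start at 0, NTS1 to NTS4 and NTS5 to NTS8 from left to right), with the mean and SD of each group of 4 mice as bars. The anti-GBM mice lie at 152 to 346 CPM for Havcr1 against 0.774 to 2.44 CPM in the healthy mice, whereas Slc34a1, Nphs1 and Umod overlap between the groups.

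Proximal tubule genes went down, but far less than injury genes went up. Of 16 genes of the S1 and S2 segments, 9 were lower and none was higher (median log2 fold change −0.51), and of 10 genes of the straight S3 segment, 4 were lower and none was higher (median −0.84, and −1.5 without NTS8). Of all tested genes, 16.3% were lower and 18.8% were higher. The counts were less firm than the direction: 5 genes of S1 and S2 were called lower without NTS2, and 2 genes of S3 without NTS2, NTS3, NTS4 or NTS8. The latter S3 count is near the share of all tested genes. Hnf4a, the transcription factor that maintains proximal tubule identity, was at 995, 1085, 1052 and 994 CPM in healthy and at 833, 727, 770 and 662 CPM in anti-GBM mice. The groups did not overlap, yet the decrease was small, at −0.46 ± 0.094 (adjusted p = 0.00479). Slc6a19, the apical carrier of neutral amino acids, fell from 556, 410, 579 and 859 CPM to 370, 253, 252 and 174 CPM (−1.2 ± 0.254, adjusted p = 0.00608). Slc9a3, the sodium-hydrogen exchanger that reclaims bicarbonate, fell from 164 to 175 CPM in healthy mice to 101 to 116 CPM in diseased mice (−0.63 ± 0.073, adjusted p = 0.000278). Its healthy mice were closely alike, so a change of this size was well resolved.

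Several proximal genes were not called, and those of the straight segment varied between mice. Slc5a2, the glucose carrier SGLT2, had a log2 fold change of −0.22 ± 0.211 (adjusted p = 0.449), and Miox, the kidney enzyme that breaks down inositol, one of −0.02 ± 0.156 (adjusted p = 0.933). In both genes NTS5 had the highest value of all 8 mice, and without it Slc5a2 was called lower (−0.48, adjusted p = 0.039). Aqp1, the water channel of proximal tubule and thin descending limb, lay at 619 to 993 CPM in healthy and 435 to 806 CPM in diseased mice (−0.43 ± 0.212, adjusted p = 0.136, and 0.0387 without NTS8). Slc7a13, an S3 amino acid carrier, was at 877, 999.6, 670 and 713 CPM in healthy mice and at 257, 402, 135 and 459 CPM in anti-GBM mice (−1.38 ± 0.322, adjusted p = 0.00927). Slc5a8, a monocarboxylate carrier, fell by 0.81 ± 0.203 on the log2 scale (adjusted p = 0.013). Cyp7b1, an oxysterol hydroxylase high in the straight tubule, spanned 15.6 to 256 CPM in healthy and 3.79 to 123 CPM in diseased mice, with the lowest healthy value in NTS3 and the lowest diseased value in NTS5, and was not called (−1.28 ± 0.997, adjusted p = 0.342).

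Receptors for filtered protein were measured next, because leakage of albumin is the hallmark of the model. Lrp2 encodes megalin, the large apical endocytic receptor, and was at 1541, 2227, 2294 and 2428 CPM in healthy mice and at 1782, 1077, 1451 and 1117 CPM in anti-GBM mice. The groups overlapped, and the adjusted p of 0.0257 (−0.65 ± 0.191) became 0.0599 to 0.0698 without NTS2, NTS3, NTS4, NTS6 or NTS8. Cubn, which encodes the partner receptor cubilin, narrowly missed the threshold (−0.51 ± 0.182, adjusted p = 0.0506). It passed without NTS1 (adjusted p = 0.0335) or NTS7 (adjusted p = 0.0315). With no mouse left out, it passed under RLE scaling, 2 other count filters, DESeq2, a robust fit and 1 fit of the experiment's 14 libraries (adjusted p = 0.0148 to 0.0496). Dab2, the adaptor that links megalin to clathrin, fell by 0.44 ± 0.102 (adjusted p = 0.00927), whereas Amn, which carries cubilin to the surface, had a log2 fold change of 0.1 ± 0.088 (adjusted p = 0.419). Lysosomal genes in the same list moved the other way: Ctsd, the protease cathepsin D, was at 344 to 399 CPM in healthy and 485 to 724 CPM in anti-GBM mice (0.76 ± 0.134, adjusted p = 0.00243), and Cd63, a lysosomal membrane tetraspanin, rose by 0.44 ± 0.096 (adjusted p = 0.00664). Over the 9 genes of albumin uptake and lysosomes, 5 were higher and 1 was lower, beside 18.8% and 16.3% of all tested genes. The lower count was 2 without NTS1 or NTS5.

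Carriers of organic ions and amino acids fell in part. Of 15 measured genes, 6 were lower and none was higher (median log2 fold change −0.39), beside 16.3% and 18.8% of all tested genes. Abcc2, an apical export pump for conjugated anions, fell from 372 to 490 CPM to 235 to 287 CPM (−0.73 ± 0.115, adjusted p = 0.00137). Slc1a1, the glutamate carrier, fell by 0.71 ± 0.119, and Slc3a1, the heavy subunit of the cystine carrier, fell by 0.56 ± 0.128. The organic cation carrier Slc22a2 and the anion carrier Slc22a8 were not called, with log2 fold changes of −0.35 ± 0.155 and 0.08 ± 0.169.

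Genes of phosphate handling were examined because FGF23, the hormone studied in the series, lowers phosphate reabsorption through its co-receptor Klotho. Kl, which encodes Klotho (chr5:150952607-150993817), was at 943, 1067, 1345 and 1347 CPM in healthy and at 965, 647, 650 and 603 CPM in anti-GBM kidneys. One diseased mouse, NTS5, lay within the healthy range, and the other 3 lay below it (log2 fold change −0.71 ± 0.174, adjusted p = 0.0113). Slc34a1, the main sodium-phosphate carrier NaPi-IIa, showed the same arrangement, at 6659, 6557, 8540 and 7245 CPM against 7614, 5197, 4315 and 4497 CPM. It was not called (−0.42 ± 0.187, adjusted p = 0.104), but it fell by 0.65 when NTS5 was left out (adjusted p = 0.00656). Slc34a3, the second carrier NaPi-IIc, was at 58.3 to 96.3 CPM in healthy and 37.4 to 51 CPM in diseased mice (−0.73 ± 0.153, adjusted p = 0.00572). Slc20a1, a carrier found in most cells, rose from 29.9, 31.7, 30.8 and 37.9 CPM to 120, 86.2, 57.3 and 62.9 CPM (1.33 ± 0.212, adjusted p = 0.00152). Xpr1, a phosphate exporter, fell by 0.69 ± 0.12 (adjusted p = 0.00221). Of the FGF23 receptors, Fgfr3 fell by 0.44 ± 0.115 (adjusted p = 0.0152) and Fgfr1 was not called (0.11 ± 0.067, adjusted p = 0.209).

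Vitamin D enzymes varied strongly from mouse to mouse. Cyp27b1, the enzyme that activates vitamin D, was at 4.63, 5.87, 3.82 and 20.1 CPM in healthy mice and at 41.1, 26.7, 21.7 and 23.4 CPM in diseased mice (1.74 ± 0.475, adjusted p = 0.0185). Its adjusted p was 0.06 without NTS2 and 0.074 without NTS3 and NTS5. NTS4 was the healthy mouse closest to the diseased range. Cyp24a1, the enzyme that degrades vitamin D and a target of FGF23, was at 28.1 to 164 CPM in healthy and 48.1 to 278 CPM in diseased mice, and was not called (0.95 ± 0.597, adjusted p = 0.241, and 0.0451 without NTS4). Vdr, the vitamin D receptor, and Pth1r, the receptor for parathyroid hormone, had log2 fold changes of −0.09 ± 0.15 and −0.17 ± 0.099 and were not called. Among the 15 genes of phosphate, Klotho and vitamin D, 2 were higher and 4 were lower, beside 18.8% and 16.3% of all tested genes. The higher count was 1 without NTS2 and without NTS3 and NTS5.

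Segments beyond the proximal tubule were examined against the shares of all tested genes, 18.8% higher and 16.3% lower. In the thick ascending limb, 1 of 11 genes was lower and none was higher, whereas 1 was higher without NTS3 and 2 were lower without NTS8. The lower gene was Egf, which encodes epidermal growth factor and fell from 2054, 2001, 1662 and 1743 CPM to 781, 1030, 645 and 1096 CPM, with no overlap (−1.07 ± 0.168, adjusted p = 0.00137). Umod, which encodes uromodulin, the most abundant urinary protein, was at 4360, 3507, 2712 and 2720 CPM in healthy mice and at 1155, 4126, 2729 and 5232 CPM in anti-GBM mice, so the lowest and the highest value were both from diseased mice (−0.01 ± 0.376, adjusted p = 0.991). Slc12a1, the target of loop diuretics, was also lowest in NTS5, at 193 CPM against 412 to 1559 CPM in the other 7 mice. Of the distal convoluted and connecting tubule, 1 of 9 genes was higher (none without NTS2) and 1 was lower (none without NTS3, NTS4, NTS6 or NTS8), and Slc12a3, the target of thiazides, was not called (0.02 ± 0.265, adjusted p = 0.955). In principal cells of the collecting duct, 3 of 9 genes were higher, among them Scnn1b and Scnn1g, the beta and gamma subunits of the epithelial sodium channel, with log2 fold changes of 0.56 ± 0.145 and 0.5 ± 0.126. The median of that list was 0.45, and −0.02 without NTS8, when 1 gene was also lower. The water channel gene Aqp2 was at 93.8 to 144 CPM in healthy and 126 to 323 CPM in anti-GBM mice (0.75 ± 0.271, adjusted p = 0.0561). It was called higher without NTS5 (0.89, adjusted p = 0.0208) and without NTS3 and NTS5 (0.8, adjusted p = 0.0475). With no mouse left out, DESeq2 (adjusted p = 0.0158) and a test without a count filter (adjusted p = 0.0206) also called it higher. Of 9 intercalated cell genes 1 was higher (none without NTS1, NTS2 or NTS5), and Foxi1, their defining transcription factor, had a log2 fold change of −0.16 ± 0.195.

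In the renin-angiotensin and sodium list, 2 of 13 genes were higher (1 without NTS1 or NTS2) and 4 were lower, beside 18.8% and 16.3% of all tested genes. Sgk1, the kinase through which aldosterone and glucocorticoids stimulate sodium uptake, rose from 61.7, 65.2, 49.7 and 59.8 CPM to 313, 232, 454 and 335 CPM (2.5 ± 0.188, adjusted p = 3.08e-05). Ren1, the renin gene, was at 48.9, 58, 130 and 115 CPM in healthy and at 63.5, 84.9, 174 and 195 CPM in anti-GBM mice, and its spread within each group exceeded the difference between groups (0.56 ± 0.405, adjusted p = 0.311).

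**Figure D3:**
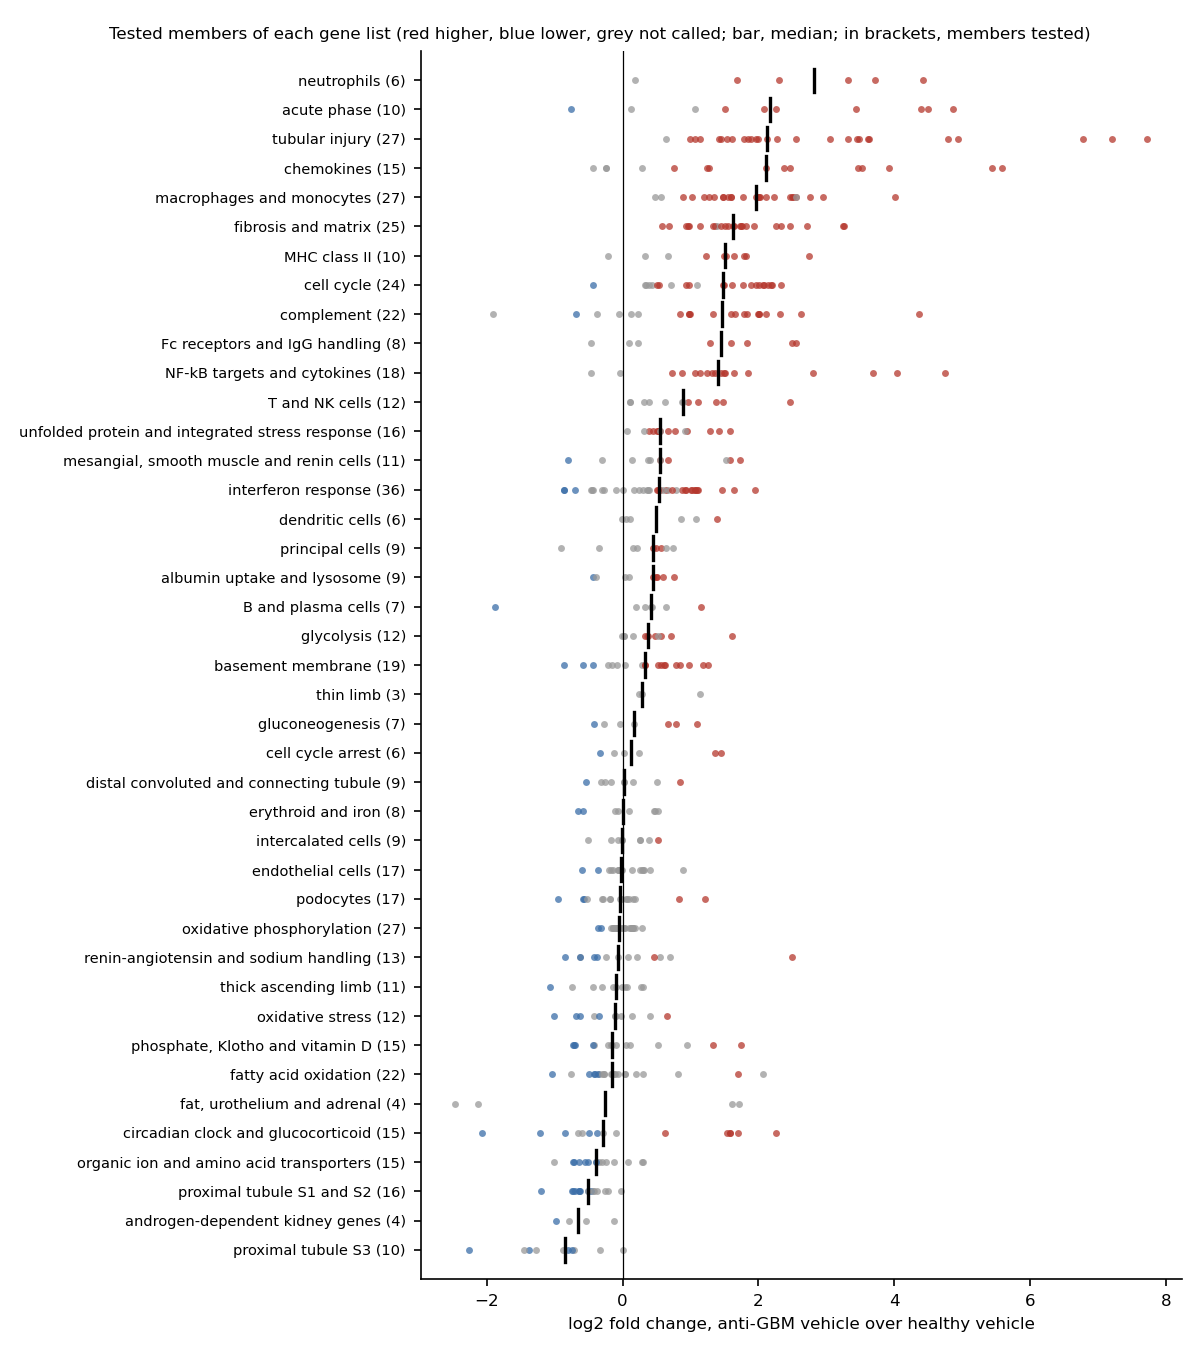
Log2 fold change of each tested gene of each list in anti-GBM over healthy kidneys (points, red where called higher, blue where called lower, grey where not called), with the median of the list as a bar and the number of genes tested in brackets. Medians range from 2.81 for the 6 neutrophil genes that could be tested to −0.84 for the 10 genes of the proximal S3 segment. Some of these neutrophil genes passed the count filter only through the diseased mice. Their list had a median of 2 with at least 10 counts required in every library.

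Podocytes, whose foot processes cover the glomerular filter, showed no common direction. Nphs1, which encodes nephrin of the slit diaphragm, was at 30.4, 32.6, 37.2 and 45.5 CPM in healthy and at 43.1, 38.6, 46.4 and 34.1 CPM in anti-GBM mice (0.16 ± 0.138, adjusted p = 0.402). Synpo (synaptopodin), Podxl (podocalyxin) and Wt1, a transcription factor that defines podocytes, had log2 fold changes of 0.06, −0.04 and 0.05, and their groups overlapped as well. Of 17 podocyte genes, 2 were higher and 3 were lower (5 without NTS5), with a median of −0.04. These shares lie near the 18.8% and 16.3% of all tested genes. The higher genes were Cdkn1c, the cell cycle inhibitor p57, at 20.7 to 27.4 CPM in healthy and 45.4 to 65.5 CPM in diseased mice (1.22 ± 0.129, adjusted p = 0.000174), and Kirrel, a partner of nephrin (0.83 ± 0.104, adjusted p = 0.000424). Npr3, the natriuretic peptide clearance receptor, fell by 0.95 ± 0.158, and Magi2, a scaffold of the slit diaphragm, fell by 0.58 ± 0.15.

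Of 11 mesangial, smooth muscle and renin cell genes, 4 were higher and 1 was lower, beside 18.8% and 16.3% of all tested genes. Acta2 and Tagln, contractile proteins of smooth muscle cells and myofibroblasts, were at 26.2 to 32.4 CPM and 21.4 to 28.6 CPM in healthy mice and at 65.7 CPM or more and 72.6 CPM or more in diseased mice. Their log2 fold changes were 1.59 ± 0.149 and 1.73 ± 0.107. Myh11 and Cnn1, other contractile genes of smooth muscle, were not called and overlapped between the groups (−0.31 ± 0.27 and 1.52 ± 0.543, adjusted p = 0.401 and 0.0518). Cnn1 passed the threshold without NTS5 (adjusted p = 0.00444) and without NTS3 and NTS5 (adjusted p = 0.0122). With no mouse left out, it passed by DESeq2 (adjusted p = 0.0139), under 2 other count filters (0.0237 and 0.0495) and in 1 fit of the experiment's 14 libraries (0.0236). Pdgfrb, a growth factor receptor of pericytes and mesangial cells, rose by 0.55 ± 0.107 (adjusted p = 0.00403), whereas Itga8, an integrin of mesangial cells, fell by 0.8 ± 0.097 (adjusted p = 0.000344). Of 17 endothelial genes none was higher and 2 were lower, against 18.8% and 16.3% of all tested genes. Without NTS5 3 were higher and without NTS6 1 was, and 1 was lower without NTS1, NTS2, NTS4, NTS5, NTS6 or NTS8. Kdr, the main receptor for vascular endothelial growth factor, fell from 107, 117, 119 and 120 CPM to 85.6, 68.4, 78.4 and 72.8 CPM (−0.6 ± 0.087, adjusted p = 0.000901). Pecam1, Emcn and the glomerular endothelial gene Ehd3 were not called, with log2 fold changes of −0.2 ± 0.135, −0.02 ± 0.12 and 0.25 ± 0.129.

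Type IV collagen chains of the basement membrane moved in opposite directions. The network of alpha 1 and alpha 2 chains is found in most basement membranes, whereas the network of alpha 3, alpha 4 and alpha 5 chains is typical of the mature glomerular filter. Col4a1 was at 316, 341, 316 and 344 CPM in healthy and at 555, 677, 767 and 597 CPM in anti-GBM mice (0.98 ± 0.109, adjusted p = 0.000229), and Col4a2 rose by 0.85 ± 0.095. Col4a3, whose product carries the Goodpasture antigen of human anti-GBM disease (chr1:82586921-82722059), was at 255, 338, 283 and 278 CPM in healthy and at 202, 185, 202 and 183 CPM in anti-GBM mice. All diseased mice were below all healthy mice (−0.58 ± 0.098, adjusted p = 0.00195). Col4a4 fell by 0.43 ± 0.107 (adjusted p = 0.012). Laminins were divided too, with Lama5 and Lamb2, the alpha and beta chains of the mature glomerular laminin, higher by 0.62 ± 0.128 and 0.53 ± 0.094, and Lama1 lower (−0.86 ± 0.165). Over the list, 11 of 19 genes were higher and 3 were lower, beside 18.8% and 16.3% of all tested genes. The share of lower genes was thus near that of all tested genes.

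Genes of fibrosis and matrix rose. Of 25 measured genes, 24 were higher and none was lower, beside 18.8% and 16.3% of all tested genes. The median log2 fold change was 1.63. Col1a1, a chain of fibrillar type I collagen, was at 47.5, 46.7, 66.1 and 53.2 CPM in healthy and at 231, 337, 365 and 241 CPM in diseased mice (2.46 ± 0.179, adjusted p = 2.89e-05). Col3a1 rose by 2.26 ± 0.239 and Fn1, fibronectin, by 1.94 ± 0.152. Lox, an enzyme that cross-links collagen, rose from 2.69 to 3.82 CPM to 14.6 to 23.8 CPM (2.71 ± 0.189). Timp1, an inhibitor of matrix metalloproteinases, rose from 0.321 to 0.642 CPM to 9.09 to 27.5 CPM (4.94 ± 0.399). Tgfb1, the profibrotic cytokine, rose less than most, by 0.96 ± 0.084, but with little spread between mice (adjusted p = 6.48e-05).

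Macrophage genes rose. Of 29 genes 27 could be tested, 24 of them were higher and none was lower, beside 18.8% and 16.3% of all tested genes. The median log2 fold change was 1.96. Cd68, a lysosomal protein of macrophages, was at 3.53, 3.76, 4.45 and 4.17 CPM in healthy and at 15.6, 17.7, 13.5 and 15.3 CPM in anti-GBM mice (1.96 ± 0.13, adjusted p = 2.28e-05). Adgre1, which encodes F4/80, differed more between diseased mice, at 23, 25.5, 14.9 and 9.17 CPM against 6.28 to 8.53 CPM in healthy mice (1.28 ± 0.277, adjusted p = 0.00668). Lyz2, lysozyme, had a like order among the diseased mice, at 162, 173, 60.4 and 38.7 CPM against 16.3 to 27.8 CPM (2.47 ± 0.451, adjusted p = 0.00289). Itgam, the integrin CD11b, rose by 2.96 ± 0.249, Cd14, a co-receptor for bacterial lipopolysaccharide, by 2.77 ± 0.204, Ccr2, the receptor that draws monocytes into tissue, by 1.49 ± 0.316 and Mrc1, the mannose receptor, by 1.78 ± 0.336. Csf1r, the growth factor receptor that macrophages depend on, was at 39.9 to 75.7 CPM in healthy and 65.8 to 106 CPM in diseased mice and was not called (0.47 ± 0.195, adjusted p = 0.0845, and 0.0497 without NTS1).

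Neutrophil, T cell and B cell genes were examined in turn. Of 13 neutrophil genes 6 had enough counts to be tested, and 5 of these were higher, beside 18.8% of all tested genes. Some of the 6 passed the count filter only through the diseased mice, such as S100a8 with 10 reads over all healthy libraries, so a rise was built into this count. With at least 10 counts required in every library, 2 genes were called higher. S100a8 and S100a9, the subunits of calprotectin, were at most 0.29 and 0.513 CPM in any healthy mouse and at 0.946 to 4.41 and 1.7 to 6.79 CPM in diseased mice, with the lowest of these values in NTS6 (log2 fold changes 4.42 ± 0.674 and 3.72 ± 0.486). The defining surface gene Ly6g had 0 reads in all healthy libraries together and 6 in all anti-GBM libraries, and Mpo and Elane, enzymes of immature neutrophils, had none. Of 21 T and natural killer cell genes 12 were tested and 5 were higher, beside 18.8% of all tested genes. The count was 3 without NTS1, NTS2 or NTS6 and without NTS3 and NTS5. Ccl5, a chemokine of activated T cells and other cells, rose from 1.1 to 2.71 CPM to 6.77 to 12.1 CPM (2.46 ± 0.314). Of the lineage genes, Cd3d and Cd4 were higher (0.97 ± 0.313 and 1.38 ± 0.391, adjusted p = 0.0363 and 0.0219), and Cd8a was not called (0.32 ± 0.413, adjusted p = 0.58). The calls were not firm: the adjusted p of Cd3d became 0.0618 to 0.1 without NTS1, NTS2, NTS4, NTS5, NTS6 or NTS7, and that of Cd4 0.0587 to 0.0624 without NTS1, NTS2 or NTS6 and 0.054 without NTS3 and NTS5. By DESeq2, without a count filter and in 1 fit of the experiment's 14 libraries, the adjusted p of Cd3d was 0.0878, 0.0935 and 0.0501. Cd3e was not called (0.88 ± 0.334, adjusted p = 0.0645) but passed without NTS4 (adjusted p = 0.0454) or NTS8 (adjusted p = 0.0372). It also passed with at least 10 counts in every library (adjusted p = 0.0485) and in the fit of 14 libraries (adjusted p = 0.0477). Of 17 B and plasma cell genes 7 were tested, of which 1 was higher and 1 was lower, beside 18.8% and 16.3% of all tested genes. Their log2 fold changes ran from −1.88 to 1.15. The lower count was 0 without NTS1, NTS2, NTS3 or NTS5, and the higher count was 2 without NTS7. Igkc, the kappa light chain constant region, rose by 1.15 ± 0.247 (adjusted p = 0.00633) and Ighm, the heavy chain of IgM, was not called (0.42 ± 0.193, adjusted p = 0.117, and 0.0184 without NTS7).

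Genes that let leukocytes sense bound antibody rose as well. Fcgr1, Fcgr3 and Fcgr4 encode the activating Fc receptors for IgG, and Fcer1g their shared signalling chain. Fcgr3 was at 3.47, 2.89, 5.13 and 2.95 CPM in healthy and at 16.3 to 23.9 CPM in anti-GBM mice (2.56 ± 0.202, adjusted p = 3.78e-05). Fcgr1, Fcgr4 and Fcer1g rose by 2.5 ± 0.297, 1.6 ± 0.223 and 1.84 ± 0.176, also without overlap between the groups. Fcgr2b, the inhibitory receptor, was at 41.1 to 50.3 CPM in healthy and 40.5 to 66.4 CPM in diseased mice (0.23 ± 0.145, adjusted p = 0.244), and Fcgrt, the neonatal Fc receptor that recycles IgG and albumin, had a log2 fold change of 0.09 ± 0.086 (adjusted p = 0.444). Whether the activating and the inhibitory receptors changed differently was not tested.

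Of 22 complement genes 16 were higher and 1 was lower (2 without NTS5 or NTS7), beside 18.8% and 16.3% of all tested genes. The median log2 fold change was 1.46. C3, the central component on which all activation routes converge (chr17:57203970-57228136), was at 15.6, 27, 103 and 29.1 CPM in healthy and at 832, 765, 1272 and 719 CPM in anti-GBM mice. NTS3 had by far the most C3 among the healthy mice, and the lowest diseased mouse was still far above it (4.36 ± 0.557, adjusted p = 0.000455). C4b of the classical pathway rose by 2.02 ± 0.393, and the receptors for the cleavage products, C3ar1 and C5ar1, rose by 1.59 ± 0.352 and 2.32 ± 0.242. C1qa and C1qb, made mainly by macrophages, rose by 2 ± 0.185 and 2.12 ± 0.163. Cd55, a membrane inhibitor of complement, was at 17.4 to 29 CPM in healthy and 10.7 to 15.2 CPM in diseased mice (−0.69 ± 0.177, adjusted p = 0.0147). Cfb, factor B of the alternative pathway, was not called (−0.38 ± 0.139, adjusted p = 0.0566) but passed without NTS5 (adjusted p = 0.035) or NTS7 (adjusted p = 0.0346). With no mouse left out, it passed by DESeq2 (adjusted p = 0.0377), without a count filter (0.041) and in 1 fit of the experiment's 14 libraries (0.032).

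In the antigen presentation list of MHC class II, 7 of 10 genes were higher, beside 18.8% of all tested genes. Cd74, the invariant chain, was at 235, 237, 272 and 275 CPM in healthy and at 978, 1197, 742 and 609 CPM in diseased mice (1.79 ± 0.192, adjusted p = 0.000186), and H2-Aa, an alpha chain, rose by 1.5 ± 0.202. Both were highest in NTS5 and NTS6, as were Adgre1 and Lyz2. Ciita, the transcriptional activator of the class II genes, was at 7.39 to 9.88 CPM in healthy mice and at 17.6, 16.5, 15.3 and 5.55 CPM in diseased mice, the last value being from NTS8. It was not called over all mice (0.67 ± 0.294, adjusted p = 0.0998) and had an adjusted p of 0.00103 without NTS8. Of 6 dendritic cell genes 1 was higher, and 2 without NTS7, against 18.8% of all tested genes.

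Chemokines that attract neutrophils and monocytes rose from very low levels. Of 24 chemokine genes 15 were tested, 11 of these were higher and none was lower, beside 18.8% and 16.3% of all tested genes. The median log2 fold change was 2.11. Some, such as Cxcl2 with 7 healthy reads, passed the count filter only through the diseased mice, and with at least 10 counts required in every library 6 were called higher and the median was 1.01. Cxcl1, a ligand of the neutrophil receptor CXCR2 (chr5:90891241-90893115), was at 0.331, 0.275, 0.387 and 0.577 CPM in healthy and at 14.2, 26.5, 14.2 and 12.9 CPM in anti-GBM mice (5.44 ± 0.33, adjusted p = 1.73e-05). Cxcl2, a ligand of the same receptor, was at most 0.194 CPM in healthy mice and at 4.09, 5.67, 5.22 and 3.77 CPM in diseased mice (5.58 ± 0.424). Ccl2, the main ligand of CCR2, rose by 3.53 ± 0.361, from 0.275 to 0.898 CPM to 4.86 to 9.52 CPM. Cxcl16 and Cx3cl1, membrane-bound chemokines, were abundant in healthy kidney and rose by 1.27 ± 0.094 and 0.77 ± 0.111. Ccl20 and Ccl8 had too few counts for the test, with 4 and 26 reads over the healthy and 93 and 243 reads over the anti-GBM libraries.

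Targets of nuclear factor kappa B (NF-kB), the transcription factor that many inflammatory signals share, were listed together with cytokines. In this list 16 of 18 tested genes rose and none fell (median 1.4), beside 18.8% and 16.3% of all tested genes. Icam1, an adhesion molecule for leukocytes, was at 25.8, 25.3, 25.6 and 23.7 CPM in healthy and at 56.8, 66.5, 74.6 and 76.2 CPM in diseased mice (1.45 ± 0.1, adjusted p = 2.52e-05). Nfkb2 and Relb, subunits of the non-canonical pathway, rose by 1.51 ± 0.129 and 1.85 ± 0.133. Socs3, a feedback inhibitor of cytokine receptors, rose from 1.88 to 3.63 CPM to 16.3, 24.1, 51.6 and 84.3 CPM (4.04 ± 0.528, adjusted p = 0.000515), with NTS7 and NTS8 highest. Lif, a cytokine of the interleukin 6 family, rose by 3.69 ± 0.42 and Tnfrsf1b, tumour necrosis factor receptor 2, by 1.36 ± 0.15. Il1b, interleukin 1 beta, rose by 1.14 ± 0.226 but stayed at 2.32 to 3.66 CPM, and Il6 and Tnf were counted 9 and 29 times over the 4 anti-GBM libraries against 0 and 15 times over the 4 healthy ones.

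Promoters of the members of each list, whether or not they rose, were searched for short letter patterns. Patterns of the factors AP-1 and HNF4 were searched as well and are not reported here. The search ran from 250 bases before to 50 bases after each annotated start in RefSeq (build GRCm38.p6). The pattern GGNNTTTCC, a common form of the NF-kB site, occurred on either strand in 5.82% of all 32851 promoters. It occurred in 11 of 21 promoters of the NF-kB list (52.4%), a list drawn up from known targets and cytokines, and in 6 of 18 chemokine promoters (33.3%). It was also in 4 of 10 promoters of the Fc receptor list (40%) and in 0 of 15 podocyte promoters. The windows of 4 genes are shown because these genes, Cxcl1, Cxcl2, Icam1 and Nfkbia, rose without overlap and each window holds the pattern at more than one place. Nfkbia, which encodes the inhibitor of NF-kB and is itself a target, rose by 1.64 on the log2 scale. The windows are chr5:90891125-90891244 (plus strand) for Cxcl1, chr5:90903779-90903898 (plus strand) for Cxcl2, chr9:21015770-21015889 (plus strand) for Icam1 and chr12:55492648-55492837 (minus strand) for Nfkbia. Capitals mark the pattern or its reverse complement.
Cxcl1: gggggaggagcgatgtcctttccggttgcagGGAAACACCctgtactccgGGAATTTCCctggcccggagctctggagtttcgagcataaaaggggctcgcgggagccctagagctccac
Cxcl2: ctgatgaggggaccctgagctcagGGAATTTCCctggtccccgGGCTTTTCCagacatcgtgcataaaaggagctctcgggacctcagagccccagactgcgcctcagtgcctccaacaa
Icam1: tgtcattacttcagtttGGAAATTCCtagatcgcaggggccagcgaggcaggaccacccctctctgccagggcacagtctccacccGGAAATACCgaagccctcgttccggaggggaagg
Nfkbia: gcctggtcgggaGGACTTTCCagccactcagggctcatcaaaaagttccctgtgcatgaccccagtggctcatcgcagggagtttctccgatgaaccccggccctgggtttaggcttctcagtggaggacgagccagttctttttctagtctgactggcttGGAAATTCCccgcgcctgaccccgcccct

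These matches describe letters in the promoters. They do not show that a factor was bound there in these kidneys.

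Acute phase genes rose, most of all in NTS7 and NTS8. Of 15 genes 10 had enough counts to be tested, 7 rose and 1 fell, beside 18.8% and 16.3% of all tested genes. The median log2 fold change was 2.18. Fga, Fgb and Fgg encode the chains of fibrinogen, the clotting protein that is mainly made by the liver. Fga was at 19.2, 19.7, 14.6 and 25.6 CPM in healthy and at 53.5, 93.3, 449 and 263 CPM in diseased mice (3.44 ± 0.593, adjusted p = 0.00216). Fgg followed at 6.34 to 7.63 CPM in healthy and at 38.8, 64.7, 313 and 162 CPM in diseased mice (4.4 ± 0.606, adjusted p = 0.000686), and Fgb at 0.825 to 4.3 CPM against 5.81, 6.68, 109 and 39.9 CPM (4.49 ± 1.02, adjusted p = 0.00819). All 3 chains thus had the same order of the diseased mice, and Fgb alone was not called by limma-voom (adjusted p = 0.0761). Serpina3n, a protease inhibitor, rose by 4.86 ± 0.687 and Cp, the copper-carrying ferroxidase ceruloplasmin, by 2.09 ± 0.152. Serpina3n was at 0.138 CPM or below in every healthy mouse but NTS3 and passed the count filter only through the diseased mice. Its rise was thus built into the count of this list. Pigr, the receptor that carries IgA across epithelium, fell from 144 to 187 CPM to 71.5 to 116 CPM (−0.75 ± 0.142, adjusted p = 0.00336). Hp, haptoglobin, was highest in the healthy mouse NTS3, at 16.6 CPM, and was called only when NTS3 was left out (adjusted p = 0.934 with and 0.0101 without it).

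The pattern TTGCNNAA, a form of the site of C/EBP factors, was found on either strand in 10.8% of all promoters and in 8 of 13 promoters of the acute phase list (61.5%). That list was drawn up from known acute phase genes. Its NF-kB pattern was in 4 of 13 promoters (30.8%), as was a pattern of STAT factors. The C/EBP pattern was also in 6 of 13 neutrophil promoters (46.2%) and in 0 of 8 promoters of the mesangial, smooth muscle and renin cell list. The windows of Fga, chr3:83025993-83026112 on the plus strand, and Fgb, chr3:83049864-83049983 on the minus strand, are shown because these neighbouring genes rose together, with the pattern in capitals.
Fga: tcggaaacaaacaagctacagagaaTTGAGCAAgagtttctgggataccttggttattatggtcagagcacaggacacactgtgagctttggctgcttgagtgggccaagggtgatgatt
Fgb: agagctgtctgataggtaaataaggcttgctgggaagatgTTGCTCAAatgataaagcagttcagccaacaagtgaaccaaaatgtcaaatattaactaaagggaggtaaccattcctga

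Interferon response genes rose more often than they fell. Of 36 genes, 17 were higher and 3 were lower (1 without NTS3 and NTS5, 5 without NTS1), against 18.8% and 16.3% of all tested genes, with a median of 0.53. Genes of MHC class I and of antigen processing rose with little spread: B2m, the light chain of class I molecules, was at 204, 213, 254 and 247 CPM in healthy and at 428, 450, 540 and 495 CPM in diseased mice (1.06 ± 0.107, adjusted p = 0.000142), and Psmb8, an immunoproteasome subunit, rose by 0.94 ± 0.087. Irf7, which amplifies type I interferon production, and Isg15, a ubiquitin-like modifier, rose by 1.02 ± 0.16 and 1.1 ± 0.226. Irf1, a transcription factor induced by interferon gamma, was not called (0.25 ± 0.14, adjusted p = 0.193). Cd274, the inhibitory ligand PD-L1, fell from 6.53 to 8.4 CPM to 3.75 to 4.41 CPM (−0.87 ± 0.136, adjusted p = 0.00134). Iigp1, an interferon-inducible GTPase, was lower (−0.87 ± 0.225, adjusted p = 0.0149, and 0.0697 without NTS3 and NTS5). The interferon gamma gene Ifng had 3 reads over the healthy and 3 over the diseased libraries. The pattern TTCNNNGAA of STAT factors, searched on either strand, was in 13 of 35 promoters of the list (37.1%) and in 8.3% of all promoters. The interferon list was drawn up from known response genes. The STAT pattern was also in 6 of 18 promoters of the T and natural killer cell list (33.3%) and in 0 of 15 podocyte promoters.

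Nuclear genes of oxidative phosphorylation were set beside the lower share of mitochondrially encoded counts. Of 27 nuclear genes none was higher and 2 were lower, against 18.8% and 16.3% of all tested genes. Their median log2 fold change was −0.05. Without NTS7 5 were higher, and the lower count was 0 without NTS2 and 1 without NTS4. Atp5a1, a subunit of ATP synthase, was at 2112 to 2162 CPM in healthy and 1665 to 2042 CPM in anti-GBM mice (−0.14 ± 0.097, adjusted p = 0.267). Cox4i1, a subunit of complex IV, and Ppargc1a, a coactivator of mitochondrial genes, had log2 fold changes of 0.15 ± 0.113 and −0.09 ± 0.104. The part of tissue composition or RNA handling in the lower mitochondrial share was not tested.

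Fuel use genes changed in both directions. Of 22 genes of fatty acid oxidation, the main energy source of proximal tubule, 5 were lower and 1 was higher, beside 16.3% and 18.8% of all tested genes. The lower count was 3 without NTS6 and 8 without NTS8, and the higher count was 3 without NTS5 and 0 without NTS1, NTS2, NTS3, NTS7 or NTS8. Ehhadh, an enzyme of peroxisomal oxidation, fell from 1087, 1389, 763 and 1051 CPM to 426, 518, 502 and 638 CPM (−1.04 ± 0.181, adjusted p = 0.00228). Ppara, the receptor that controls genes of this list, was not called (−0.35 ± 0.227, adjusted p = 0.25). Pck1, the rate-limiting enzyme of gluconeogenesis, was at 1656, 2440, 2003 and 1419 CPM in healthy and at 5824, 4229, 2359 and 3731 CPM in diseased mice. NTS7 lay within the healthy range (1.1 ± 0.26, adjusted p = 0.00971). Of 12 glycolytic genes 6 were higher and none was lower, beside 18.8% and 16.3% of all tested genes. The higher genes included Hk2, an inducible hexokinase (1.6 ± 0.364), Pfkp, the platelet form of phosphofructokinase (0.72 ± 0.182), and Pkm, pyruvate kinase (0.57 ± 0.134). Ldha, lactate dehydrogenase A, was at 566 to 672 CPM in diseased and 615 to 650 CPM in healthy mice. Of the antioxidant genes, Cat, catalase, fell from 1234 to 1626 CPM to 773 to 949 CPM (−0.63 ± 0.114, adjusted p = 0.00278), and Gpx3, the plasma glutathione peroxidase made by the kidney, was not called (0.14 ± 0.139, adjusted p = 0.472).

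Proliferation genes rose unevenly. Of 24 cell cycle genes, 17 were higher and 1 was lower, beside 18.8% and 16.3% of all tested genes. Mki67, which encodes the proliferation marker Ki-67, was at 6.12, 7.06, 9.53 and 9.11 CPM in healthy mice and at 14.8, 16.6, 72 and 30.1 CPM in diseased mice, with no overlap and with NTS7 standing out (2.07 ± 0.468, adjusted p = 0.00803). Top2a, a topoisomerase of dividing cells, and Cdk1, the kinase of mitosis, rose by 1.89 ± 0.439 and 2.15 ± 0.459, and both were likewise highest in NTS7. The gene that was lower was Ccnd1, cyclin D1 (−0.44 ± 0.149, adjusted p = 0.0437), whose adjusted p became 0.0585 to 0.118 when any of NTS1, NTS3, NTS4, NTS5, NTS6 or NTS7 was left out. In the list of the unfolded protein response and amino acid stress, 12 of 16 genes were higher, beside 18.8% of all tested genes. Hspa5, the main chaperone of the endoplasmic reticulum, rose from 369, 404, 476 and 338 CPM to 776, 947, 619 and 722 CPM (0.95 ± 0.147, adjusted p = 0.00131). Asns, asparagine synthetase, rose by 1.42 ± 0.251, and the transcription factor genes Atf4 and Ddit3 by 0.56 ± 0.107 and 0.78 ± 0.179.

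Genes of the circadian clock and of the glucocorticoid response shifted. Nr1d1, which encodes the clock repressor REV-ERB alpha, was at 111, 94.6, 99.8 and 105 CPM in healthy and at 30.8, 35.6, 11 and 20.6 CPM in diseased mice (−2.07 ± 0.287, adjusted p = 0.000716). Arntl, which encodes BMAL1 and is repressed by REV-ERB alpha, rose from 1.38 to 1.65 CPM to 2.77 to 6.23 CPM (1.58 ± 0.275, adjusted p = 0.00227). In both genes NTS7 and NTS8 lay furthest from the healthy mice. Per1, a clock gene that glucocorticoids induce, rose by 1.7 ± 0.24. The glucocorticoid targets Fkbp5, a chaperone of the receptor, and Tsc22d3, the leucine zipper protein GILZ, rose by 1.54 ± 0.227 and 1.58 ± 0.148, from 67 to 117 CPM to 174 to 335 CPM and from 32.5 to 49.9 CPM to 105 to 150 CPM. Over the list, 6 of 15 genes were higher and 5 were lower, beside 18.8% and 16.3% of all tested genes. The lower count was 3 without NTS1 and 2 without NTS2, NTS3, NTS4 or NTS8. Of the genes that androgens sustain in male mouse kidney, Odc1, ornithine decarboxylase, fell by 0.99 ± 0.21 (adjusted p = 0.0062). Kap, the kidney androgen-regulated protein, was at 15711 to 25010 CPM in healthy mice and at 14965, 16697, 3077 and 13581 CPM in diseased mice and was not called (−0.78 ± 0.414, adjusted p = 0.166).

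The largest decreases were smaller than the largest increases. Clec2h, a C-type lectin-like gene (chr6:128662385-128677374), was at 84.7, 48.6, 91.8 and 184 CPM in healthy and at 21, 23.8, 23 and 16.8 CPM in anti-GBM mice (−2.27 ± 0.344, adjusted p = 0.00115). Tc2n, a C2 domain gene, fell from 10.5 to 20.2 CPM to 2.73 to 3.98 CPM (−2.21 ± 0.232, adjusted p = 0.000168). Rnf24, a ring finger gene, fell from 103 to 273 CPM to 21 to 53.9 CPM (−2.1 ± 0.386). Dpys, dihydropyrimidinase of pyrimidine breakdown, was the most even, at 25.6, 31, 27.1 and 37.4 CPM against 7.12, 7.19, 7.65 and 9.67 CPM (−1.94 ± 0.147, adjusted p = 3.08e-05). Hpd, an enzyme of tyrosine breakdown, fell by 1.85 ± 0.371, and Ces2b, a carboxylesterase, fell by 2.06 ± 0.299. Dnase1, a secreted nuclease, was at 906, 700, 1181 and 489 CPM in healthy and at 448, 243, 75 and 107 CPM in diseased mice (−1.91 ± 0.51, adjusted p = 0.0169), and Fcamr, an Fc receptor for IgM and IgA, was at 14.8 to 33 CPM against 2.77 to 11.9 CPM (−1.97 ± 0.418). In these last 2 genes NTS7 and NTS8 were lowest. Slco1a1, an organic anion carrier that androgens induce, was at 355 to 626 CPM in healthy and at 212, 133, 6.69 and 57 CPM in diseased mice (−2.26 ± 0.731, adjusted p = 0.0365). Its adjusted p rose to 0.0524 to 0.0908 when NTS1, NTS2, NTS3, NTS4, NTS6 or NTS8 was left out. With no mouse left out, a robust fit gave an adjusted p of 0.0934.

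**Figure D4:**
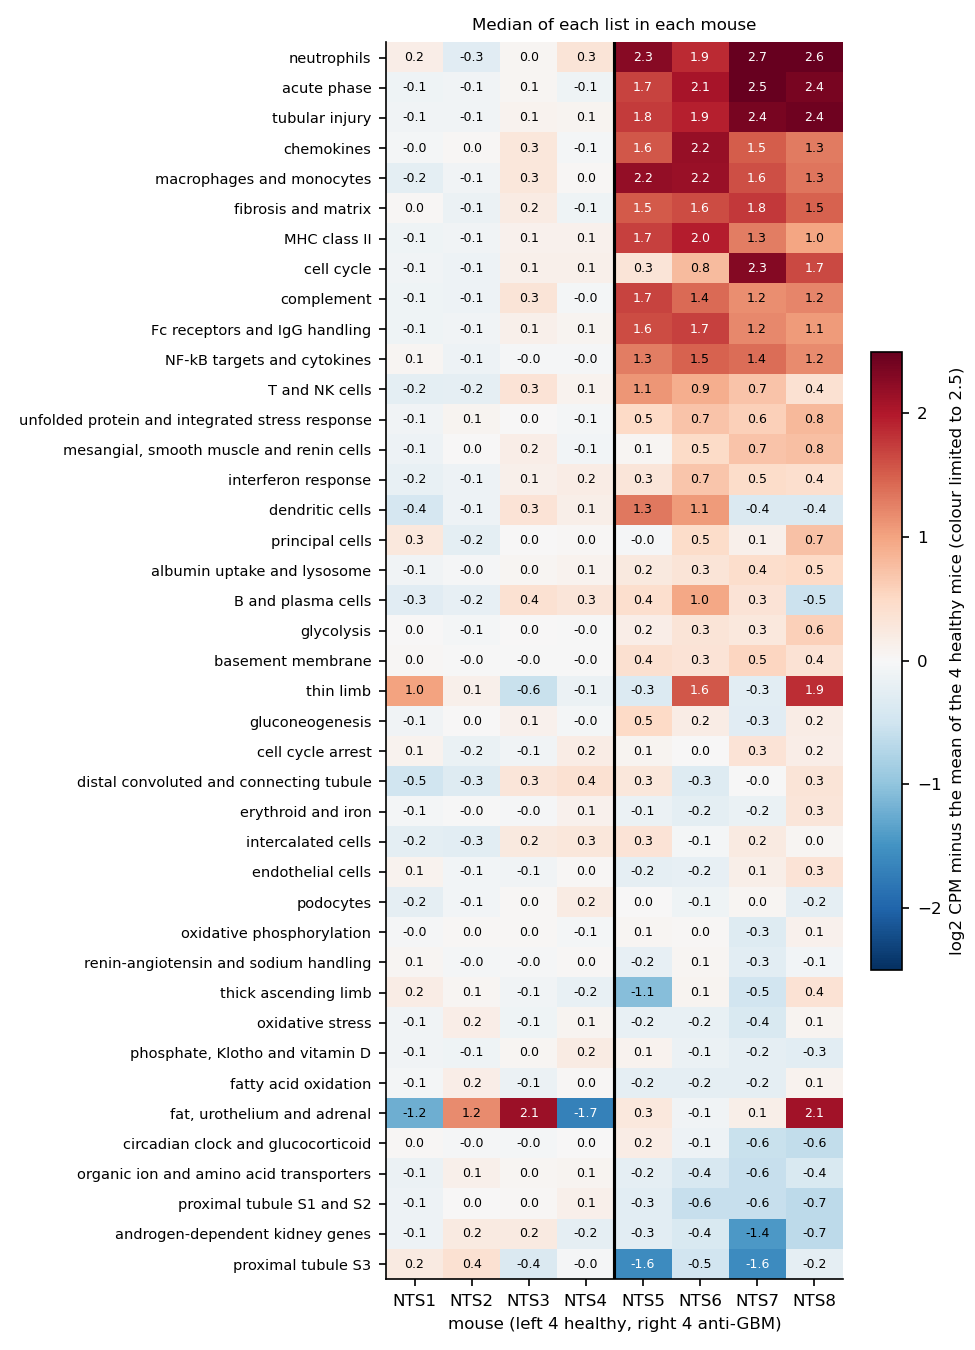
For each gene list (rows) and mouse (columns), the median over the tested genes of the list of log2 CPM minus the mean of the 4 healthy mice, with red above and blue below that mean. The injury and acute phase lists are highest in NTS7 and NTS8 and the MHC class II list in NTS5 and NTS6.

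The diseased mice were alike in the direction of lists such as those of injury, matrix and macrophages, but not in their size. In other lists their medians took both signs, such as −1.06 in NTS5 and 0.37 in NTS8 for the thick ascending limb. Summed over the injury list, the level was 1260 to 1776 CPM in healthy mice and 5773, 9166, 19200 and 11300 CPM in NTS5 to NTS8, a sum in which Spp1 had the largest share. Summed over the macrophage list, the order was different, with 944, 1090, 739 and 644 CPM against 249 to 281 CPM. The thin limb list, whose tubules run in the medulla, varied as much in healthy mice (47.4 to 238 CPM) as in diseased mice (86.7 to 333 CPM), and 0 of its 3 tested genes were called, or 1 without NTS1 or NTS5. The fat, urothelium and adrenal list was at 0.898 to 31.8 CPM in healthy and 2.96 to 25.7 CPM in diseased mice, with Adipoq of fat cells highest in NTS3 at 16.7 CPM, and none of its 4 tested genes was called. Of the adrenal genes in it, Cyp11b1 had no reads in any of the 8 libraries. The part of the sampled region in the differences between mice was not tested. With NTS3 and NTS5 left out together, the median log2 fold change was 1.79 for the matrix list and 1.68 for the chemokines.

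The other disease model of the series was used to ask which changes differed between models. In it, female BALB/c mice, 8 weeks old at induction and 10 weeks old when killed, received Adriamycin, a drug that damages podocytes. Vehicle was given as a single injection 24 h before the mice were killed, not daily for 6 days. The 4 diseased and 4 healthy vehicle mice of that model were fitted together with the 8 mice above. Adriamycin disease itself gave 2 genes higher (0.0124%) and 10 genes lower (0.0618%) among 16170 tested genes, and none in either direction without Ad5 or Ad7. By the test of the difference, the signed log2 fold change of anti-GBM disease lay above that of Adriamycin disease in 2460 genes (15.2%) and below it in 2436 genes (15.1%), the latter including genes that fell more in anti-GBM kidneys. Of the 27 injury genes, 24 were among those above, as were 24 of 25 matrix genes, 23 of 27 macrophage genes and 16 of 18 NF-kB target and cytokine genes. Of the 16 genes of proximal S1 and S2 segments, 7 were among those below. The median Adriamycin effect was −0.12 for injury and −0.19 for matrix genes.

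Vcam1 was at 16.8 to 20.8 CPM in healthy BALB/c mice and at 15.7 to 21.8 CPM in Adriamycin mice, and the 2 disease effects differed by 3.43 ± 0.184 on the log2 scale (adjusted p = 3.86e-08). Havcr1 was already at 70.7 to 157 CPM in healthy BALB/c kidneys and at 32.4 to 79.5 CPM in Adriamycin kidneys. In the same fit it was at 0.814 to 2.54 CPM in healthy C57BL/6 mice and at 157 to 360 CPM in anti-GBM mice. Slc9a3, which fell in anti-GBM kidneys, was at 199 to 212 CPM in healthy and 218 to 260 CPM in Adriamycin mice (difference of the effects −0.88). Sc5d, a desaturase of cholesterol synthesis, was at 73.4 to 76.1 CPM in healthy and 32.3 to 37.9 CPM in anti-GBM mice, and at 17.1 to 20.2 CPM in all 8 BALB/c mice. The models also differed in strain, sex, vehicle schedule and experiment, and the contributions of these to the difference cannot be told apart.

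**Figure D5:**
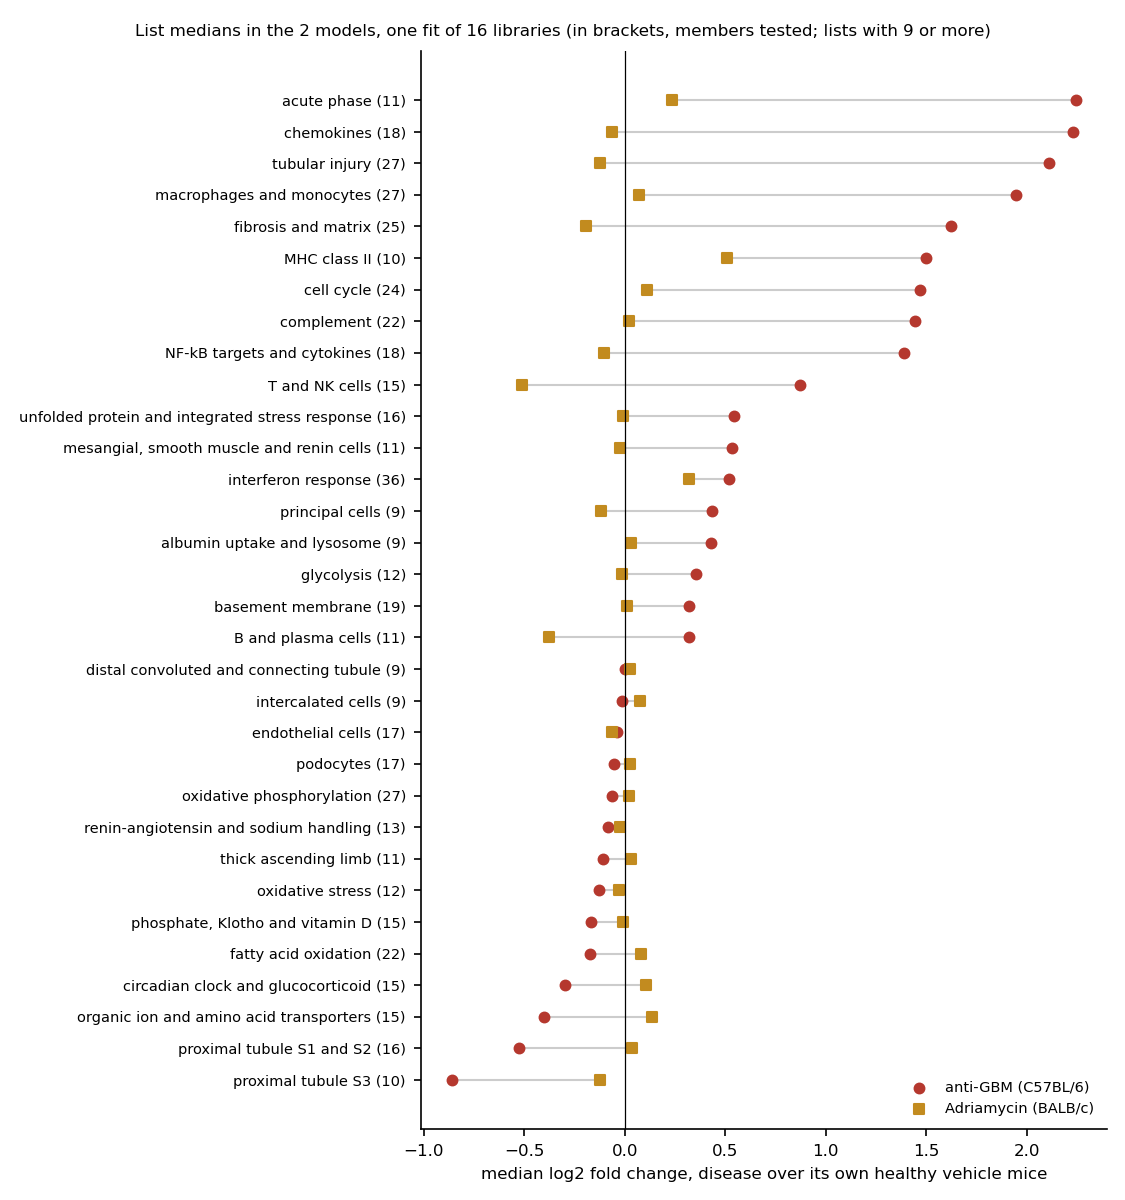
Median log2 fold change of each list with 9 or more tested genes in anti-GBM disease (circles) and in Adriamycin disease (squares), each against its own healthy mice and both from the fit of 16 libraries. The anti-GBM median is 2.11 for injury genes, where the Adriamycin median is −0.12.

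Mice given FGF23 for the same 6 days offered a second set of anti-GBM and healthy kidneys, 3 against 3, that share no library with the comparison above. Among 15371 genes tested there, 2536 were higher (16.5%) and 1863 were lower (12.1%) in anti-GBM kidneys. Of the 2799 genes called higher under vehicle and tested in both, 2732 (97.6%) had a positive fold change in FGF23-treated mice and 1785 (63.8%) were called higher there. Of the 2454 genes called lower, 2297 (93.6%) had a negative fold change and 1240 (50.5%) were called lower. Calls in opposite directions were made in 1 and 9 genes. In the FGF23-treated mice, Havcr1, Lcn2, C3 and Cd68 rose by 6.12 ± 0.639, 5.38 ± 0.546, 3.95 ± 0.407 and 2.08 ± 0.275 on the log2 scale. Kl and Slc34a1 fell by 0.52 ± 0.165 and 0.61 ± 0.166 (adjusted p = 0.0461 and 0.0279). Nr1d1 and Col4a3, called lower under vehicle, missed the threshold there, with log2 fold changes of −1.99 ± 0.732 (adjusted p = 0.0771) and −0.14 ± 0.133 (adjusted p = 0.487). Whether the disease effect differed between vehicle and FGF23 was not tested here.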

How the data were processed

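Kidney RNA of the mice was sequenced as stranded mRNA libraries. The authors demultiplexed reads with bcl2fastq 2.20.0, aligned them to GRCm38 with STAR 2.7.9a and counted them per Ensembl gene with featureCounts 1.5.1. The deposited table holds raw counts of 55487 genes, used here as deposited. How reads on overlapping or near-identical genes were counted is not given in the sources used here. Names and coordinates came from GENCODE M21, and 346 genes had no symbol.

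Columns were matched to groups, not to single mice of the labels. The study's figure legends give fewer mice for its anti-GBM groups than the 4 anti-GBM vehicle libraries in the labels. The labels were followed. Genes passing the edgeR count filter (minimum count 10), 15034 in all, were tested with edgeR 4.0.16 in R 4.3.3 (TMM scaling, quasi-likelihood F test, 8 libraries, 2 groups, no covariate), and p-values were adjusted by the Benjamini-Hochberg method over all of them. Adjusted p-values in the text are from this test unless another setting is named. Values per mouse are CPM of the TMM-scaled library. The Adriamycin comparison was 1 fit of 16 libraries with the difference of both disease effects as a contrast, and the FGF23-treated mice were fitted alone. The scripts were tested on simulated data. Alternatives were RLE scaling, 2 other count filters, DESeq2 1.42.0, limma-voom (limma 3.58.1), a robust fit, 1 fit of the 14 libraries of the experiment, and each mouse left out. Those without NTS3 and NTS5, without mitochondrially encoded genes and with the 8 Adriamycin-experiment libraries alone were added after seeing the data.

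The members, the 41 gene lists and the rule for named genes were chosen with earlier results of these data known. The rule took the 10 largest changes in each direction with a mean of at least 5 CPM, the defining members of each list, up to 2 further members per list and direction by p, and 5 genes per direction of the model difference. A few genes that the rule takes are not reported here. Nfkbia, Cd3d, the members without a test and the genes of the second principal component were named after their values were seen.

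Total counts of 13704248 to 23630210 per library limit precision mainly below about 1 CPM. All 8 libraries were treated as separate animals because the study took a kidney fragment from each mouse. Pairs of mice in a group differed by more than counting error (chi-square per degree of freedom 9.93 to 58.8).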

Additional observations from a re-analysis of the deposited data

Results flagged for a closer look

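Single mice stood apart from the other 3 of their group in 14 of 382 tests of a gene in a group (Dixon's test of the gap to the nearest mouse). Chance alone gives about 1 in 20. The healthy mouse NTS3 held 6 of these, all high: C3 at 103 CPM, C4b at 22.2 CPM, Ccl5 at 2.71 CPM, Hp at 16.6 CPM, Lyz2 at 27.8 CPM and Serpina3n at 1.74 CPM. In the other healthy mice, Ces2b was high in NTS2 at 36.9 CPM and Cyp27b1 in NTS4 at 20.1 CPM. Among the anti-GBM mice, Kl was high in NTS5 at 965 CPM, Cxcl1 in NTS6 at 26.5 CPM, and Ppargc1a in NTS8 at 94.7 CPM. NTS7 was low in Atp5a1 at 1665 CPM, Cat at 773 CPM and Ldha at 566 CPM.

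The disease effect differed between anti-GBM and Adriamycin mice by the test of the difference itself (edgeR) in the genes named for it. On the log2 scale, the anti-GBM effect was above the Adriamycin effect by 3.43 for Vcam1, 5.66 for Nr4a3, 8.4 for Havcr1, 1.7 for Efhd2 and 1.86 for Birc3. The difference was −0.97 for Sc5d, −0.88 for Slc9a3, −1.65 for Nxpe3, −1.37 for Herc3 and −0.97 for Scrn3. Strain, sex, vehicle schedule and experiment cannot be told apart from the model.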

How the results depend on the processing

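With 1 mouse left out in turn, 2063 to 2834 genes were higher and 1575 to 2574 lower, the lowest counts being those without NTS2. Under the other settings, the counts of anti-GBM genes stayed within 1.5 times those reported. The few Adriamycin calls were the least stable: 1 gene was higher and 3 were lower with at least 10 counts in every library, 20 and 29 with DESeq2, and 8 higher with the 8 Adriamycin-experiment libraries alone. With 1 mouse left out, 0 to 4 genes were higher and 0 to 13 lower, with none in either direction without Ad5 or Ad7. The cause was not tested. Of 140 named genes that were called, 131 kept call and direction under every setting in which they could be tested. With at least 10 counts in every library only 125 of the 140 were tested, and without NTS3 and NTS5 139. Of 41 list medians 32 moved by less than 1 SD between mice. Among the others, the median of the principal cell list was −0.02 without NTS8 and that of the chemokines 1.01 with at least 10 counts in every library. No paired analysis was possible because the numbers NTS1 to NTS8 are not shared between groups. Genes with few reads, such as Il6, Ifng and most neutrophil genes, were below the depth needed for a test.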
